A study of Mus musculus with 18 samples.

Results

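The mitochondrial genome of the mouse carries 37 genes, and every one of them has a row among the 56691 genes of the deposited table. They are 13 genes for subunits of the respiratory chain, 2 rRNA genes and 22 tRNA genes. The members are all genes that the table places on chromosome MT, a rule that uses no measured value. The question followed here is how much of each liver library these transcripts made up and how they were composed in relation to each other.

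RNA was sequenced from the liver of WT C57BL/6 mice in 3 groups of 6 libraries, 18 in all. IR-Ori livers had ischemia and reperfusion with oridonin, a diterpenoid of the herb Isodon rubescens, whose dose, route and time the labels leave out. IR livers had the same surgery without oridonin, with the portal triad clipped for 1 h, which cut the supply of the median and left lobes (about 70% of the liver), and then 6 h of reperfusion. Sham mice had anaesthesia and the opening of the abdomen alone. The labels do not say which lobe was sampled, nor that each library is a separate animal, so p-values measure only the spread between these libraries. Because the libraries are bulk tissue, fewer cells of a type and less RNA per cell cannot be told apart.

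The mitochondrial genome is a small DNA circle present in many copies per cell. Both of its strands are transcribed into long precursors by the polymerase Polrmt with its partners Tfam and Tfb2m, and tRNAs that stand between the larger genes are cut out at their ends, which sets the rRNAs and mRNAs free. Most mRNAs come from the precursor of one strand, while mt-Nd6 comes from the other. The proteins are core subunits of complexes I, III, IV and V, and hepatocytes, which run the urea cycle and make much of the body's glucose, hold many mitochondria.

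The genes stand close together and some share bases. mt-Atp8 and mt-Atp6, which encode 2 subunits of the ATP synthase (complex V), overlap by 43 bases at MT:7927-7969, shown here because reads inside this stretch belong to both genes. Capitals mark the start codon of mt-Atp6 and the stop codon of mt-Atp8.
mt-Atp8 to mt-Atp6 overlap: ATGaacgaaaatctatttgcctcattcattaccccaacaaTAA

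Among the tRNA genes only the gene for proline tRNA, mt-Tp, had counts in every library, and its sequence is shown for that reason. It lies on the minus strand at MT:15356-15422 as the last gene of the table's map. Capitals mark the anticodon, found as the middle of a loop of 7 bases closed by a perfect stem of 5 base pairs, a form that occurs once in the gene.
mt-Tp: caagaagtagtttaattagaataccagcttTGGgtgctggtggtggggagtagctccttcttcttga

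A stretch of mouse chromosome 1 holds nuclear copies of the middle of the mitochondrial genome, and is shown because the same letters occur in both places. It holds 7 genes annotated as unprocessed pseudogenes on the minus strand, within 4663 bases at chr1:24650616-24655278 of GRCm39. They run from the last part of mt-Co1 to the first part of mt-Nd4, and 5 of the 7 have no substitution against the mitochondrial gene. The 5′ ends of 3 copies are shown beside the mitochondrial bases, as GENCODE M21 transcripts give them, with every differing base in capitals. The windows are MT:6381-6470 and chr1:24655189-24655278 for mt-Co1 and Gm29216, MT:7013-7102 and chr1:24654557-24654646 for mt-Co2 and Gm28661, and MT:9459-9548 and chr1:24652111-24652200 for mt-Nd3 and Gm28438. Positions in a substitution are counted from the first base of the mitochondrial transcript, whose base is given before the position. Gm29216 differs from mt-Co1 by 6 substitutions, from T1056A to A1066T, all close to its first base. Gm28661 is identical to mt-Co2 over the 681 bases it covers, and Gm28438 differs from mt-Nd3 by T3C alone.
mt-Co1 window: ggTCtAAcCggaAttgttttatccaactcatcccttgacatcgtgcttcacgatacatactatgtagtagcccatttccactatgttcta
Gm29216 window: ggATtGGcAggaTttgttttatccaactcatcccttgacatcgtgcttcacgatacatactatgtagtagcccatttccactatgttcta
mt-Co2 window: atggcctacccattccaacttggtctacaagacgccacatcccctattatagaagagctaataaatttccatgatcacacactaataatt
Gm28661 window: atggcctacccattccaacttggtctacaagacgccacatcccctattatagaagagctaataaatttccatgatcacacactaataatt
mt-Nd3 window: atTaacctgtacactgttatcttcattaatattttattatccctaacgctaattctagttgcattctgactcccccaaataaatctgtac
Gm28438 window: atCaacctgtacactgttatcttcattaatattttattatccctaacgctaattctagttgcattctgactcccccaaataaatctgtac

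The 13 mRNA genes fell into 7 that were very abundant and 6 that were far lower, in libraries of 12449529 to 19798188 counts. Levels are in FPKM, the authors' counts scaled by gene length and by the total count of the library, so that genes of different length can be compared. The median over 18 libraries was 49897 FPKM for mt-Co1, the catalytic core of cytochrome c oxidase (complex IV), and 45709.9 FPKM for mt-Cytb, the cytochrome b of complex III. The complex I subunits mt-Nd2, mt-Nd1, mt-Nd4, mt-Nd5 and mt-Nd6 followed at 31777, 26682, 17616, 8729 and 8266 FPKM. Together these 7 genes held 99.6% to 99.8% of the mitochondrial mRNA counts of a library.

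The 6 others stood at least 26.2 times below the lowest of the 7 by their medians. They were mt-Co2 at 316 FPKM, mt-Atp6 at 231 FPKM, mt-Co3 at 214 FPKM, mt-Nd3 at 34.0 FPKM, mt-Nd4l at 12.2 FPKM and mt-Atp8 at 6.70 FPKM. In the genome they are neighbours and lie between mt-Co1 and mt-Nd4.

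**Figure D1:**
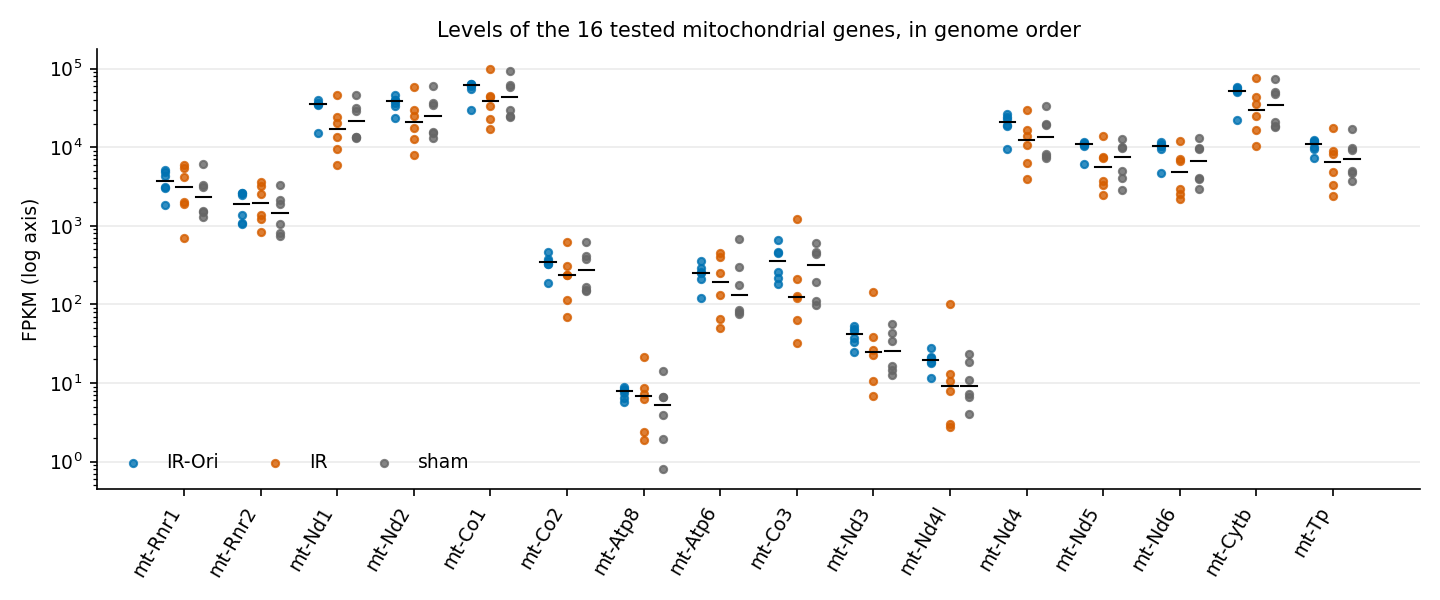
Levels in FPKM (log axis) of the 16 mitochondrial genes that passed the filter on low counts, in the order of the genome; each point is a library of IR-Ori (blue), IR (orange) or sham (grey), 6 a group, and black bars are group medians. The 6 genes from mt-Co2 to mt-Nd4l lie far below their neighbours in all 3 groups.

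Of the 6 low genes, 5 match the nuclear copies over nearly their whole length. The share of 100-base windows of the transcript that occur letter for letter in a nuclear transcript was 99.9% for mt-Co3, 99.5% each for mt-Co2 and mt-Atp6, 98.5% for mt-Nd4l and 97.6% for mt-Nd3. mt-Atp8 shares 0% with annotated nuclear transcripts. It lies between mt-Co2 and mt-Atp6, whose copies start 914 bases apart on chromosome 1, as the genes do on MT. The chromosome 1 bases between annotated copies were not compared, so the 0% covers annotated transcripts only. Of the abundant genes, mt-Nd1, mt-Nd5, mt-Nd6 and mt-Cytb shared 0% of windows and mt-Nd2 shared 3.19%. These shares depend on the length of the window. With windows of 50 bases mt-Nd2 shared 8.19%, mt-Nd5 7.61% and mt-Co1 51.1%, while mt-Nd1, mt-Nd6 and mt-Cytb stayed at 0%. mt-Co1 shared 30.8% and mt-Nd4 shared 60.8%, and their chromosome 1 copies cover only a part of the gene. Genes of chromosome 2 shared windows too, Gm13339 with mt-Nd2, Gm13340 with mt-Co1 and Gm13341 with mt-Co2.

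The chromosome 1 copies had medians over the libraries of 72 counts for Gm10222 to 4509 counts for Gm10925. Gm10925 was above mt-Atp6, at a median of 2236 counts, and Gm28437, at 2944 counts, was above mt-Co3, at 2694 counts. Adding a gene's copy to it raised the median of mt-Atp6 to 1.69% of mt-Cytb per length, against 0.497% for mt-Atp6 alone, that of mt-Co2 to 1.36%, against 0.740%, and that of mt-Co3 to 1.29%, against 0.715%. How the authors counted reads that match both places is not given in the sources used here, and its part in these low counts was not tested. The levels of the 5 genes that match the copies over nearly their whole length are reported as uncertain. So are those of mt-Co1 and mt-Nd4, which share a part of their windows, and that of mt-Atp8, whose neighbours are copied.

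**Figure D2:**
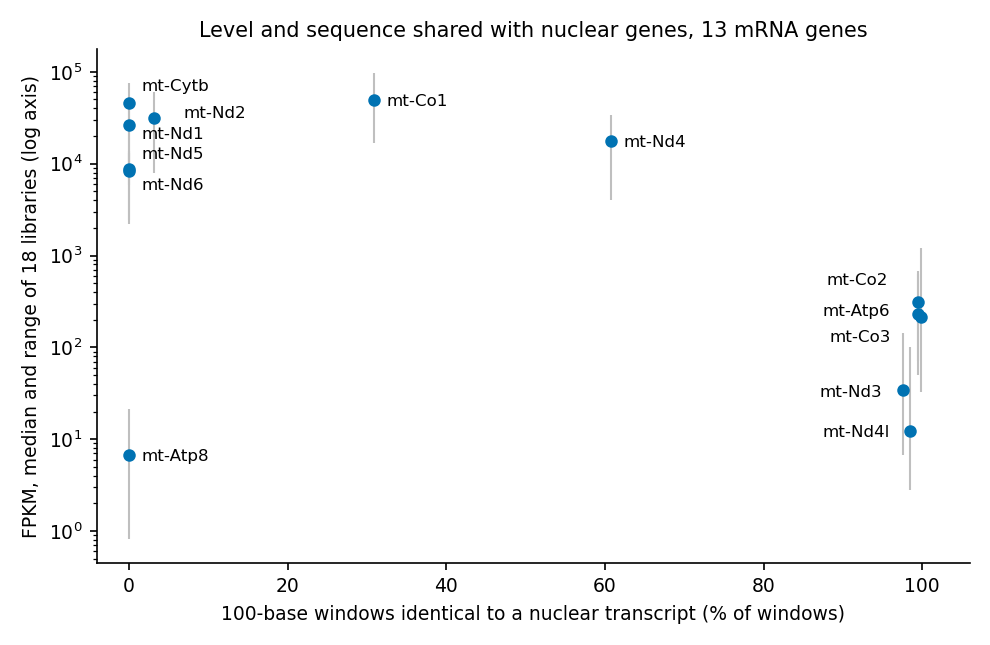
Median level in FPKM (log axis, with the range of 18 libraries as a line) of each of the 13 mRNA genes against the percent of its 100-base windows identical to a nuclear transcript. The 5 genes above 97% sit below 1000 FPKM by their medians, and mt-Atp8, at 0% of windows in annotated nuclear transcripts, is the lowest of all.

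Of the 22 tRNA genes, 18 had 0 counts in all 18 libraries. mt-Tn, mt-Tc and mt-Te had at most 12 counts in a library and 57 in all. The gap from a tRNA gene to the gene on either side is at most 5 bases, except for 32 bases between mt-Tn and mt-Tc. mt-Tp is different, with 157753 counts in all, and its level was 7359, 10848 and 12516 FPKM (lowest, median and highest) in IR-Ori, 2397, 6556 and 17411 FPKM in IR and 3717, 7029.6 and 16905 FPKM in sham. These values are divided by a length of only 67 bases, and mt-Tp held 0.268 ± 0.0425% of the mitochondrial counts in IR-Ori, 0.254 ± 0.0236% in IR and 0.253 ± 0.0206% in sham (SD, n = 6 each). The summed share of the 22 tRNA genes differed by 0.0140 points for IR-Ori against IR (exact permutation p = 0.578), 0.00115 points for IR against sham (exact p = 0.931) and 0.0151 points for IR-Ori against sham (exact p = 0.558). No gene follows mt-Tp on the map, and whether its counts come from the tRNA or from longer transcripts was not tested.

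Mitochondrial genes took between 6.52% and 42.9% of the counts of a library, and the groups overlapped. The lowest, median and highest share was 14.1%, 29.2% and 32.03% in IR-Ori, 6.52%, 17.03% and 42.9% in IR, and 10.3%, 19.7% and 42.8% in sham. The highest IR library, IR 1, and the highest sham library, sham 2, lay above every IR-Ori library, whereas 5 of the 6 IR-Ori libraries held between 26.8% and 32.03%. The difference of the means was 7.86 percentage points for IR-Ori against IR (two-sided exact permutation test, p = 0.212), -2.64 points for IR against sham (exact p = 0.712) and 5.22 points for IR-Ori against sham (exact p = 0.370). Adjusted over the 18 tests on shares, these were 0.382, 0.801 and 0.512.

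Single libraries decided these values. Without IR 1 the share was 12.6 points higher in IR-Ori than in IR (exact p = 0.0216), and without sham 2 it was 9.40 points higher in IR-Ori than in sham (exact p = 0.0433) and 1.54 points higher in IR than in sham (exact p = 0.861). Without IR 1 it was 7.38 points lower in IR than in sham (difference -7.38, exact p = 0.281). Since the total behind an FPKM includes the mitochondrial counts, a larger mitochondrial share scales the FPKM of nuclear genes down.

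**Figure D3:**
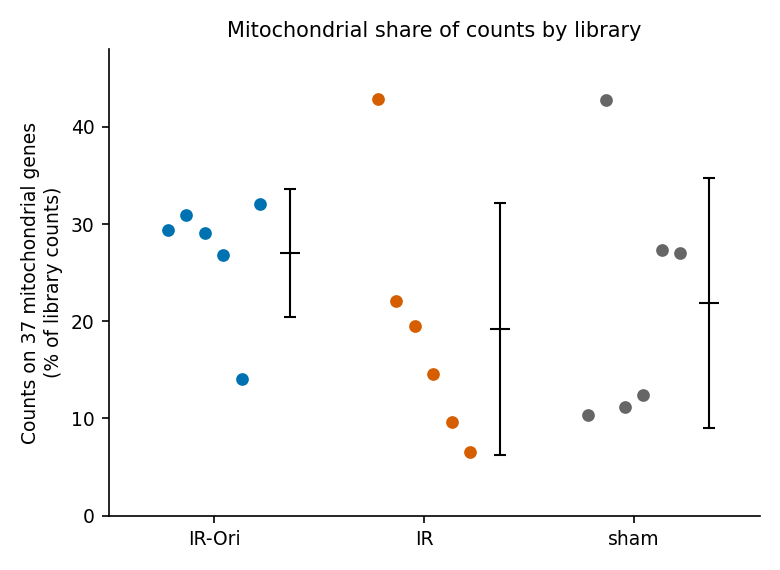
Share of each library's counts on the 37 mitochondrial genes, in percent, for IR-Ori, IR and sham; points are libraries, spread sideways only to separate them, and bars are mean and SD of 6. IR 1 at 42.9% and sham 2 at 42.8% lie above all IR-Ori libraries, and IR-Ori 5 at 14.1% lies apart from its group.

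Setting IR-Ori against IR asks how livers with oridonin differed after the same surgery. At the level of single genes 0 of the 16 mitochondrial genes that passed the filter changed in edgeR's quasi-likelihood test, where 3.6% of all 14595 genes tested did. None of the 16 was under an unadjusted p of 0.05, against 24.2% of all genes, and DESeq2 and limma also called 0. With limma 3 were under an unadjusted p of 0.05, a cut at which its share over all genes was not counted. The other 21 members, all tRNA genes, had too few counts to be tested. Of the 16, 12 had a positive log2 fold change, with a median of 0.32 beside -0.0001 over all genes.

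The largest log2 fold changes were those of abundant complex I genes, while the complex I genes mt-Nd3 and mt-Nd4l had negative ones. mt-Nd6, the complex I subunit on the other strand, had 4660.4, 10278 and 11626 FPKM in IR-Ori and 2211, 4786 and 11991 FPKM in IR (lowest, median, highest). Its log2 fold change was 0.73 ± 0.48 (SE; 95% interval -0.26 to 1.73; edgeR adjusted p = 0.343). mt-Nd1, a membrane subunit of complex I, had 15068, 35479 and 40055 FPKM in IR-Ori and 5879, 16839.7 and 46032 FPKM in IR, with a log2 fold change of 0.68 ± 0.50 (-0.36 to 1.72; adjusted p = 0.403). In both genes 1 IR library, IR 1, lay above every IR-Ori library and the other 5 lay below the IR-Ori median.

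mt-Nd5, at the far end of the membrane arm, had 6071, 10918 and 11559.8 FPKM in IR-Ori and 2463, 5564 and 13839 FPKM in IR (log2 fold change 0.64 ± 0.47, adjusted p = 0.402). mt-Nd2 had 23565, 38261 and 46591 FPKM in IR-Ori and 8012, 21231 and 58664 FPKM in IR (0.49 ± 0.50, adjusted p = 0.553), and mt-Nd4 had 9454, 21023 and 26216 FPKM in IR-Ori and 3983, 12199.7 and 30162 FPKM in IR (0.52 ± 0.51, adjusted p = 0.532). All 5 abundant complex I genes had higher medians in IR-Ori, inside groups that overlapped. So did every other tested mitochondrial gene except mt-Rnr2.

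mt-Cytb had 22249, 52312 and 58260.0 FPKM in IR-Ori and 10379, 30067 and 74911 FPKM in IR, a log2 fold change of 0.47 ± 0.51 (adjusted p = 0.573). mt-Co1 had 29441, 61279.7 and 64312 FPKM in IR-Ori and 16861, 38358 and 98144 FPKM in IR, a log2 fold change of 0.32 ± 0.49 (adjusted p = 0.700). The proline tRNA gene mt-Tp, with the values given above, had a log2 fold change of 0.43 ± 0.46 (adjusted p = 0.570). The 95% intervals of all 16 genes spanned 0, and each reached past 1 on the log2 scale on at least one side, so that differences of that size lie within the error.

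The rRNAs had values closer to 0. mt-Rnr1, the RNA of the small mitochondrial ribosomal subunit, had 1820, 3707 and 5151 FPKM in IR-Ori and 705, 3118 and 5864 FPKM in IR (log2 fold change 0.14 ± 0.49, adjusted p = 0.879). mt-Rnr2, the RNA of the large subunit, had 1042, 1905 and 2642 FPKM in IR-Ori and 826, 1940 and 3618.5 FPKM in IR (-0.18 ± 0.44, adjusted p = 0.823). Over all libraries their medians were 3093 and 1631 FPKM, against 45709.9 FPKM for mt-Cytb. The labels name the library kit without saying whether rRNA was removed or poly(A) RNA selected.

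Without IR 1, mt-Co3, a core subunit of complex IV, was called, with a log2 fold change of 1.902 (edgeR adjusted p = 0.0394), where 1057 of 14731 genes were called in all. With IR 1 its value was 0.15 ± 0.73 (adjusted p = 0.9204). Without IR 1, 12 of the 16 genes were under an unadjusted edgeR p of 0.05. The share of all genes under that cut was not counted without IR 1 and was 24.2% with all libraries. The genes of a library share its mitochondrial share, so the 12 are not separate observations. mt-Co3 stood at 184, 354 and 651 FPKM in IR-Ori and at 32.8, 124 and 1219 FPKM in IR, the highest being IR 1 and the next 209.75. It is one of the genes with a copy on chromosome 1.

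The 5 other low genes kept wide intervals. mt-Nd4l had 11.5, 19.45 and 27.7 FPKM in IR-Ori and 2.79, 9.21 and 101.52 FPKM in IR, with a log2 fold change of -0.43 ± 0.73 (edgeR adjusted p = 0.740), a negative sign that comes with IR 1 at the top of its group. mt-Nd3 had 24.99, 41.7 and 53.4 FPKM in IR-Ori and 6.78, 24.5 and 144 FPKM in IR (-0.16 ± 0.61). mt-Atp6 (121, 254 and 358 FPKM in IR-Ori, 49.8, 191 and 447 FPKM in IR), mt-Co2 (187, 342 and 464 FPKM in IR-Ori, 70.2, 239 and 614 FPKM in IR) and mt-Atp8 (5.68, 7.83 and 8.78 FPKM in IR-Ori, 1.88, 6.76 and 21.6 FPKM in IR) had log2 fold changes of 0.14 ± 0.59, 0.31 ± 0.48 and -0.16 ± 0.60.

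**Figure D4:**
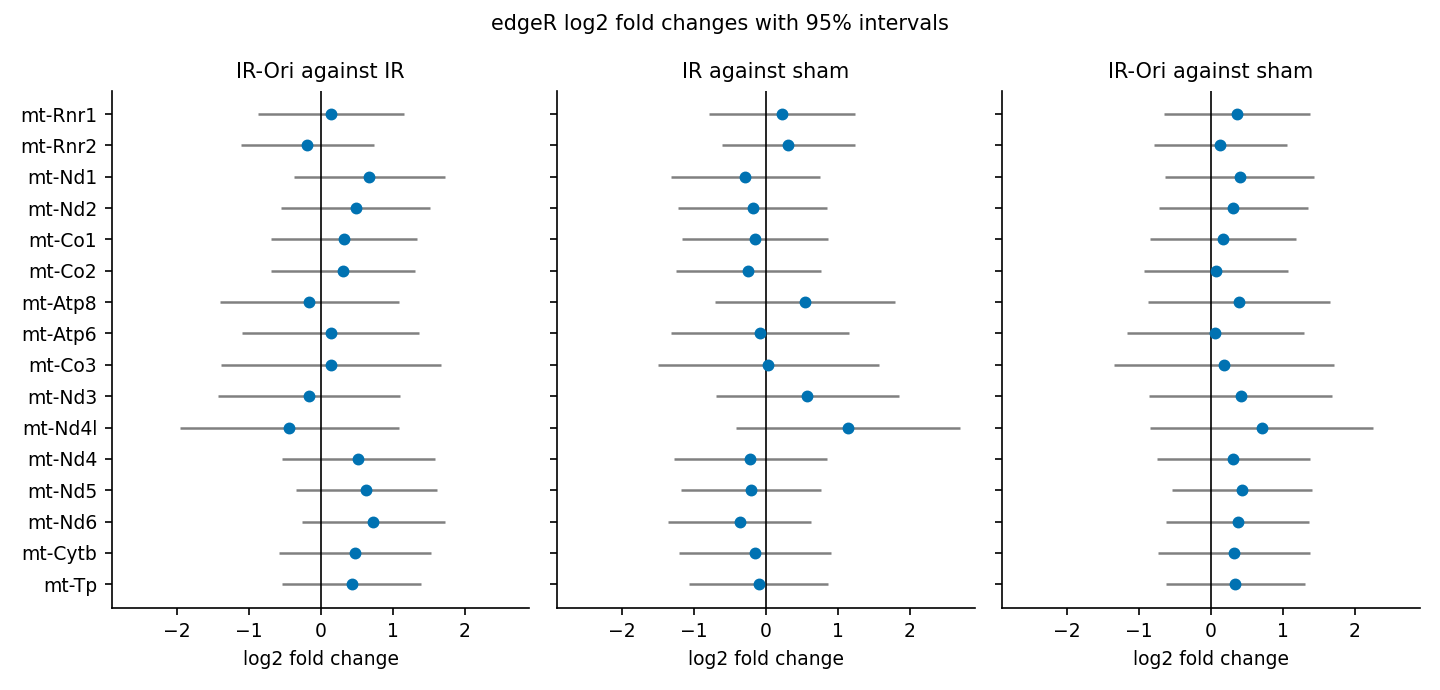
Log2 fold changes of the 16 tested mitochondrial genes in edgeR, with 95% intervals as lines, for IR-Ori against IR, IR against sham and IR-Ori against sham. Every interval includes 0.

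Setting IR against sham asks how livers after ischemia and reperfusion differed from livers that had the opening of the abdomen alone. Again 0 of the 16 genes were called, where 7.89% of all genes were, and 0 were under an unadjusted p of 0.05, against 23.5% of all genes; DESeq2 and limma called 0 as well. Of the 16, 6 had a positive log2 fold change, and the median was -0.12 beside 0.00 over all genes. The IR libraries enter this comparison and that of IR-Ori with IR with opposite signs, so their values are given side by side and not related.

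mt-Nd6 had 2211, 4786 and 11991 FPKM in IR and 2976, 6764 and 13128 FPKM in sham (log2 fold change -0.36 ± 0.48, 95% interval -1.35 to 0.63, edgeR adjusted p = 0.696). mt-Nd1 had 5879, 16839.7 and 46032 FPKM in IR and 12969, 21296 and 46798 FPKM in sham (-0.28 ± 0.50, adjusted p = 0.780). The values of mt-Co1 were 16861, 38358 and 98144 FPKM in IR and 23915, 44029 and 94241 FPKM in sham (-0.15 ± 0.49), and those of mt-Cytb 10379, 30067 and 74911 FPKM in IR and 18306, 34187 and 74114 FPKM in sham (-0.15 ± 0.51). In each of these genes the sham values lay within or close to the range of IR. mt-Nd2 (13073, 25126 and 59827 FPKM in sham), mt-Nd4 (7225, 13569.5 and 33702 FPKM in sham) and mt-Nd5 (2836, 7410.2 and 12825 FPKM in sham), with the IR values given above, had log2 fold changes of -0.18 ± 0.50, -0.21 ± 0.51 and -0.20 ± 0.47, and mt-Tp had -0.10 ± 0.46.

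The rRNAs had positive values, 0.22 ± 0.49 for mt-Rnr1 (705, 3118 and 5864 FPKM in IR; 1284, 2323 and 6186 FPKM in sham) and 0.31 ± 0.44 for mt-Rnr2 (826, 1940 and 3618.5 FPKM in IR; 751, 1471 and 3324 FPKM in sham). The largest was mt-Nd4l at 1.14 ± 0.74 (edgeR adjusted p = 0.377), with 2.79, 9.21 and 101.5 FPKM in IR and 4.06, 9.10 and 23.8 FPKM in sham, where the medians were close and IR 1 stood alone. mt-Nd3 (12.6, 25.6 and 56.5 FPKM in sham) and mt-Atp8 (0.81, 5.31 and 14.2 FPKM in sham) had 0.58 ± 0.61 and 0.55 ± 0.60, and mt-Co2 (148, 273 and 629.6 FPKM in sham) and mt-Atp6 (75.4, 130.1 and 676 FPKM in sham) had -0.24 ± 0.48 and -0.08 ± 0.59. Without IR 1, mt-Co3 was lower in IR by a log2 fold change of -1.74 (adjusted p = 0.0423), where 1560 of 14731 genes were called in all. With IR 1 its value was 0.04 ± 0.73 (adjusted p = 0.985), and it had 97.8, 317 and 611 FPKM in sham. Without IR 1, 4 of the 16 genes were under an unadjusted edgeR p of 0.05. The share of all genes under that cut was not counted without IR 1 and was 23.5% with all libraries.

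IR-Ori against sham asks how far the treated livers differ from livers without ischemia. edgeR called 0 of the 16 genes and 0% of all genes; 10% of all genes and 0 of the 16 were under an unadjusted p of 0.05, and DESeq2 and limma called 0 of the 16. All 16 had a positive log2 fold change, between 0.06 for mt-Atp6 and 0.71 for mt-Nd4l, with a median of 0.33 beside -0.01 over all genes. The genes of a library share its mitochondrial share, so their common sign is not 16 separate observations. mt-Nd5, the highest of the abundant genes, had 6071, 10918 and 11559.8 FPKM in IR-Ori and 2836, 7410.2 and 12825 FPKM in sham (0.44 ± 0.47, 95% interval -0.54 to 1.41, edgeR adjusted p = 0.699).

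Within the mitochondrial mRNAs, complex I genes averaged a larger part of the counts in IR-Ori than in IR or sham, a difference that did not pass 0.05 once adjusted. Here each count is set against the summed counts of the 13 mRNA genes of the same library, which takes out how large the mitochondrial share is. The 7 complex I genes held 44.1%, 46.1% and 47.8% of these counts in IR-Ori (lowest, median, highest), 39.7%, 42.1% and 44.4% in IR, and 42.2%, 43.6% and 45.0% in sham. In IR-Ori 5 of the 6 libraries lay above every IR library, and 5 of the 6 lay above every sham library.

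The means were 46.0 ± 1.24% in IR-Ori, 41.9 ± 1.73% in IR and 43.5 ± 1.16% in sham (SD, n = 6 each). IR-Ori was 4.11 points above IR (two-sided exact permutation test, p = 0.00433, adjusted over 18 tests 0.0779) and 2.48 points above sham (exact p = 0.00866, adjusted 0.0779), while IR was 1.63 points below sham (difference -1.63, exact p = 0.0866, adjusted 0.228), with 3 of 6 IR libraries below every sham library. The smallest p that 6 libraries against 6 can give is 0.002165. None of the 3 differences passed 0.05 after the adjustment.

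IR-Ori 5, with the lowest mitochondrial share of its group (14.1%), had the highest complex I share (47.8%), and IR 1, with the highest mitochondrial share of all, had 42.7%. Within IR, the libraries IR 1, IR 2 and IR 3 had 42.7%, 44.4% and 42.6% for complex I with mitochondrial shares of 19.5% to 42.9%, and IR 4, IR 5 and IR 6 had 40.2%, 41.5% and 39.7% with mitochondrial shares of 6.52% to 14.5%. The part of the mitochondrial share in this result was not tested. In a choice made after the data were seen, only the 5 abundant genes that share under 5% of their 100-base windows with nuclear transcripts were kept. Complex I then held 62.9 ± 2.17% in IR-Ori, 60.4 ± 1.63% in IR and 62.1 ± 1.25% in sham. The 5 genes are mt-Nd1, mt-Nd2, mt-Nd5, mt-Nd6 and mt-Cytb, so complex I is set against mt-Cytb alone, without mt-Co1. IR-Ori was then 2.56 points above IR (exact p = 0.0130) and 0.873 points above sham (exact p = 0.472). This is another quantity, and it cannot tell the part of the shared windows from that of leaving out mt-Co1.

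Among the complex I genes mt-Nd1 had the widest difference between IR-Ori and IR, 1.84 points. It held 11.8 ± 0.921% of the mRNA counts in IR-Ori, 9.99 ± 0.733% in IR and 11.3 ± 0.7495% in sham (SD, n = 6 each), with 5 of 6 IR-Ori libraries above every IR library and 4 of 6 IR libraries below every sham library. mt-Nd2 held 14.7 ± 1.76% in IR-Ori and 13.97 ± 0.621% in IR, mt-Nd4 10.4 ± 0.9754% in IR-Ori and 9.95 ± 0.803% in IR, and mt-Nd5 7.15 ± 0.595% in IR-Ori and 6.38 ± 0.734% in IR. These 3 had 2, 3 and 3 of 6 IR-Ori libraries above every IR library.

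Against them stood mt-Co1, at 32.8 ± 0.969% in IR-Ori, 36.9 ± 3.20% in IR and 35.8 ± 1.38% in sham (SD, n = 6 each). Its IR libraries spread from 31.6% to 41.3%, so that none of the IR-Ori libraries lay below all of them, while 5 of the 6 lay below every sham library. mt-Cytb held 20.96 ± 1.23% in IR-Ori, 20.96 ± 1.59% in IR and 20.5 ± 0.774% in sham. These shares add up to a whole, so the shares of complex I and of mt-Co1 are not independent, and no gene was tested on its own share except mt-Nd6.

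mt-Nd6, the only mRNA of its strand, held 1.57%, 1.93% and 2.04% of the mRNA counts in IR-Ori (lowest, median, highest), 1.15%, 1.61% and 1.82% in IR, and 1.53%, 1.76% and 1.95% in sham. IR-Ori was 0.303 points above IR (1.87 ± 0.181% and 1.57 ± 0.258%, SD, n = 6 each, exact permutation p = 0.0325, adjusted over 18 tests 0.195), with 4 of 6 IR-Ori libraries above every IR library. Whether the counting used strand is not given in the sources used here, so RNA of the opposite strand over mt-Nd6 cannot be told apart from it, and mt-Nd5 and mt-Nd6 share 14 bases on opposite strands. IR differed from sham by -0.190 points (exact p = 0.167) and IR-Ori from sham by 0.113 points (exact p = 0.281).

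The 2 rRNAs held 1.58%, 2.67% and 3.08% of the mitochondrial counts in IR-Ori (lowest, median, highest), 1.99%, 3.33% and 7.52% in IR, and 2.17%, 2.37% and 2.80% in sham. Of the IR libraries 4 lay above every sham library and 1 below. The means were 2.41 ± 0.611% in IR-Ori, 3.796 ± 1.98% in IR and 2.42 ± 0.2496% in sham (SD, n = 6 each). IR-Ori was 1.38 points below IR (difference -1.38, exact permutation p = 0.0887, adjusted 0.228), and IR was 1.38 points above sham (exact p = 0.0671, adjusted 0.228). IR-Ori differed from sham by -0.00440 points (exact p = 0.996). Without IR 3 these differences were -1.75 (exact permutation p = 0.0390) and 1.74 (exact p = 0.0130), and without IR 1 the difference of IR from sham was 1.64 (exact p = 0.0433). IR 4 held the highest share, and without it they were -0.639 and 0.634 points.

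The balance of the rRNAs differed in no comparison at an adjusted p under 0.05. mt-Rnr2 had 0.558, 0.840 and 1.23 counts per count of mt-Rnr1 in IR-Ori (lowest, median, highest), 0.905, 1.06 and 1.94 in IR, and 0.890, 0.991 and 1.12 in sham. IR-Ori 3 and IR-Ori 4 were lowest, at 0.558 and 0.583, and IR 6 was highest, and 4 of 6 IR-Ori libraries lay below every IR library. On the log2 scale the difference was -0.50 for IR-Ori against IR (exact permutation p = 0.0671, adjusted 0.228), 0.21 for IR against sham (exact p = 0.242) and -0.29 for IR-Ori against sham (exact p = 0.173). Without IR-Ori 5 the first and the last were -0.62 (exact p = 0.0130) and -0.41 (exact p = 0.0260).

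**Figure D5:**
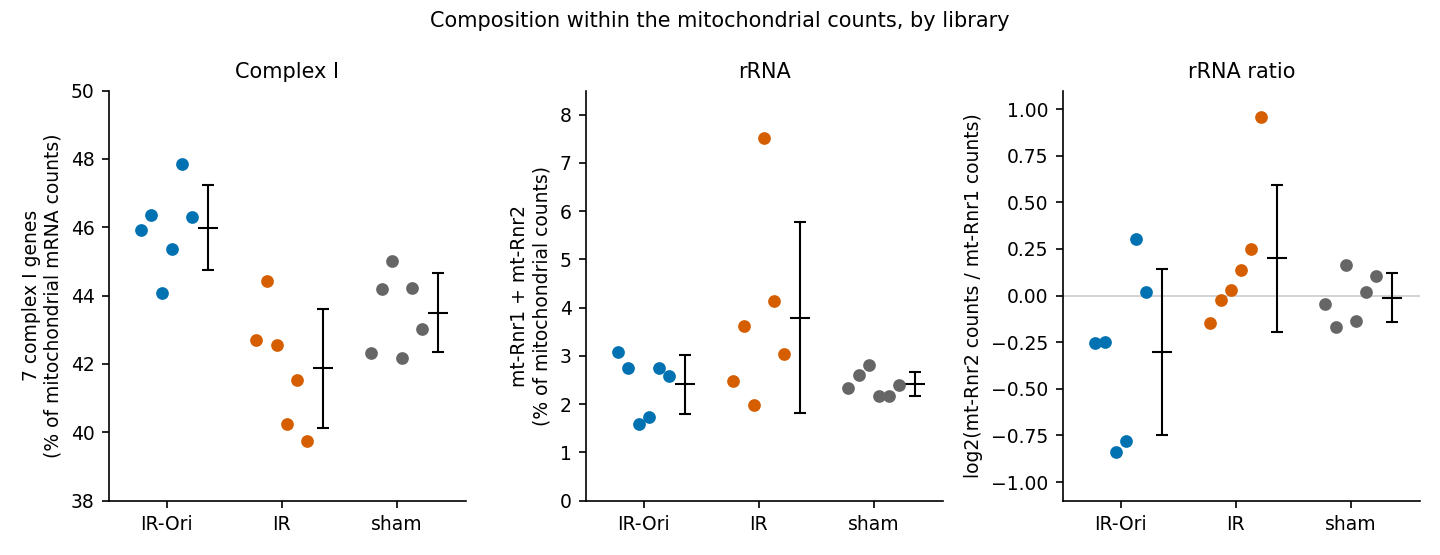
Left, share of the 7 complex I genes in the mitochondrial mRNA counts (percent, axis from 38); middle, share of the 2 rRNAs in all mitochondrial counts (percent); right, log2 of mt-Rnr2 counts over mt-Rnr1 counts. Points are libraries of IR-Ori, IR and sham with mean and SD of 6; for complex I, 5 of 6 IR-Ori libraries lie above every IR and every sham library.

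Nuclear genes whose products make, cut, modify and translate these RNAs were counted by role. Of 17 tested genes for mitochondrial DNA upkeep and transcription, edgeR called 0 for IR-Ori against IR, where 0.596% of all genes were called higher and 3.01% lower. It called 1 lower for IR against sham, where 5.52% of all genes were called higher and 2.36% lower, and 0 for IR-Ori against sham. The median log2 fold changes were 0.11, -0.13 and -0.05 in the same order. The gene called was Primpol, a primase and polymerase that restarts stalled replication, with 0.36, 0.69 and 0.92 FPKM in IR and 0.670, 1.09 and 2.09 FPKM in sham (log2 fold change -0.90 ± 0.27, adjusted p = 0.0484). Next by p in that comparison were Polg2, a subunit of the mitochondrial DNA polymerase (-0.54, adjusted p = 0.102), and the mitochondrial topoisomerase Top1mt (-0.29, adjusted p = 0.227). For IR-Ori against IR they were Primpol (0.82, adjusted p = 0.0893), the transcription factor Tfb2m (-0.66, adjusted p = 0.117) and the polymerase Polrmt (0.55, adjusted p = 0.215).

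Among 33 tested genes for RNA processing, stability and decay, 1 was higher and 1 lower for IR-Ori against IR, 1 higher and 1 lower for IR against sham, and 0 were called for IR-Ori against sham (median log2 fold changes -0.01, 0.07 and 0.11). Over all genes, 3.6% were called for IR-Ori against IR, 7.89% for IR against sham and 0% for IR-Ori against sham. Elac2, which cuts the 3′ ends of mitochondrial tRNAs, had 4.50, 5.03 and 5.36 FPKM in IR-Ori, 4.41, 8.09 and 12.9 FPKM in IR and 3.91, 5.15 and 6.39 FPKM in sham. It was lower in IR-Ori than in IR by a log2 fold change of -0.68 ± 0.18 (edgeR adjusted p = 0.0467) and higher in IR than in sham (0.63 ± 0.18, adjusted p = 0.0415). Fastkd1, a member of a family of mitochondrial RNA-binding proteins, had 4.6, 7.57 and 10.9 FPKM in IR-Ori and 2.75, 4.61 and 5.28 FPKM in IR and was higher in IR-Ori (0.90 ± 0.23, adjusted p = 0.0356).

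Nsun4, which methylates the small ribosomal RNA, had 1.03, 1.86 and 3.08 FPKM in IR and 2.91, 3.37 and 3.95 FPKM in sham and was lower in IR (-0.82 ± 0.25, edgeR adjusted p = 0.0449). Pde12, which removes poly(A) from mitochondrial RNA, was not called for IR against sham (0.88, adjusted p = 0.0561), nor was Pnpt1, the nuclease of the mitochondrial degradosome, for IR-Ori against IR (0.60, adjusted p = 0.0785).

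In the mitochondrial ribosome edgeR called 1 of 79 tested genes, lower for IR against sham, and 0 in the other comparisons, with medians of -0.11 for IR-Ori against IR, -0.04 for IR against sham and -0.27 for IR-Ori against sham. It was the small-subunit gene Mrps5 (4.61, 6.52 and 8.05 FPKM in IR; 7.41, 8.90 and 9.75 FPKM in sham; log2 fold change -0.54 ± 0.15, adjusted p = 0.0336). Mrpl49 (-0.56, adjusted p = 0.0925) and Mrpl19 (0.51, adjusted p = 0.138) followed there, and Mrpl44 (-1.07, adjusted p = 0.0769), Mrps5 (0.45, adjusted p = 0.0895) and Mrps16 (-0.67, adjusted p = 0.0945) had the smallest p for IR-Ori against IR. Over all genes, 3.6% were called for IR-Ori against IR, 7.89% for IR against sham (5.52% higher, 2.36% lower) and 0% for IR-Ori against sham. The medians over all genes were -0.0001, 0.00 and -0.01 in the same order.

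Of 34 tested translation factors and tRNA synthetases 1 was called, Nars2, which charges the asparagine tRNA. For IR against sham, where 2.36% of all genes were called lower and 5.52% higher, it was lower. It had 0.9, 1.495 and 1.83 FPKM in IR and 1.25, 2.28 and 3.03 FPKM in sham (log2 fold change -0.77 ± 0.23, edgeR adjusted p = 0.0461). The alanine tRNA synthetase Aars2 was not called for IR against sham (-0.62, edgeR adjusted p = 0.152). Aars2 (0.75, edgeR adjusted p = 0.0986), the formyltransferase Mtfmt (0.61, adjusted p = 0.145) and the initiation factor Mtif2 (0.57, adjusted p = 0.148) had the smallest p for IR-Ori against IR. The medians of the list were 0.13 for IR-Ori against IR, -0.14 for IR against sham and -0.15 for IR-Ori against sham.

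Over all genes, 3.6%, 7.89% and 0% were called for IR-Ori against IR, IR against sham and IR-Ori against sham. None of 11 tested regulators of mitochondrial biogenesis was called in any comparison (medians -0.03, 0.06 and 0.04). Those with the smallest p were the corepressor Nrip1 (-1.21, edgeR adjusted p = 0.1002 for IR-Ori against IR; 1.15, 0.0998 for IR against sham), the receptor Esrra (0.62, 0.118; -0.58, 0.130) and Myc (-1.71, 0.129; 1.59, 0.143). Without IR 1, edgeR called Esrra higher for IR-Ori against IR (0.88, adjusted p = 0.0169) and lower for IR against sham (-0.86, adjusted p = 0.0124), and Nrip1 lower for IR-Ori against IR (-1.33, adjusted p = 0.0485). The 79 tested nuclear genes for respiratory chain subunits had 0 calls in each comparison. They include partners of the mitochondrial mRNAs in the same complexes, and also Sdh genes, whose complex holds no product of the mitochondrial genome. The medians of the 79 were -0.09 for IR-Ori against IR, -0.15 for IR against sham and -0.24 for IR-Ori against sham. The medians over all genes were -0.0001, 0.00 and -0.01, and positive values were 30, 19 and 9 of the 79. Their smallest p were those of the complex I subunit Ndufb4 (0.56, adjusted p = 0.0863), Cox7a2l (-1.33, adjusted p = 0.111) and Ndufs7 (0.38, adjusted p = 0.160) for IR-Ori against IR, and of Ndufs7 (-0.49, adjusted p = 0.0696), Ndufb4 (-0.48, adjusted p = 0.116) and Ndufs3 (-0.38, adjusted p = 0.130) for IR against sham. Some of these passed under another setting. Ndufb4 was higher for IR-Ori against IR with DESeq2 (0.57, adjusted p = 0.0341) and without IR 1 (0.67, edgeR adjusted p = 0.0428), and lower for IR against sham without IR 1 (-0.61, adjusted p = 0.0485). Cox7a2l was lower for IR-Ori against IR without IR-Ori 5 (-1.79, edgeR adjusted p = 0.0366). For IR against sham, Ndufs7 was lower with DESeq2 (-0.50, adjusted p = 0.0209) and without IR 1 (-0.61, edgeR adjusted p = 0.0286), and Ndufs3 with DESeq2 (-0.40, adjusted p = 0.0295) and without sham 2 (-0.49, edgeR adjusted p = 0.0451).

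The calls on nuclear genes lay close to the threshold. Over the alternatives the adjusted p ranged from 0.0141 to 0.131 for Elac2 and 0.00787 to 0.0996 for Fastkd1 (IR-Ori against IR), and from 0.0171 to 0.112 for Elac2, 0.0162 to 0.106 for Nsun4, 0.00351 to 0.109 for Mrps5, 0.0143 to 0.156 for Nars2 and 0.0182 to 0.1605 for Primpol (IR against sham). Leaving out IR 4, IR 5 or IR 6 lost each of these calls, with adjusted p between 0.0681 and 0.131. For Elac2 the call was also lost without any 1 of the IR-Ori libraries (IR-Ori against IR), and for Nsun4 without any 1 of the sham libraries. Fastkd1 lost it without IR-Ori 1 to 4, Elac2 (IR against sham) without sham 1, 2, 4, 5 or 6, Mrps5 without sham 3, 4 or 5, Nars2 without IR 1, IR 2 or sham 1, 3, 4 or 6, and Primpol without IR 3 or sham 2, 4, 5 or 6. Other genes named above passed in at least 1 alternative for a comparison in which edgeR did not call them on all libraries. They were Primpol, Tfb2m, Mrpl44, Mrps5, Aars2, Mtif2, Pnpt1, Nsun4 and Pde12 for IR-Ori against IR. For IR against sham they were Polg2, Mrpl49 and Pde12. Their lowest adjusted p over the alternatives lay between 0.0110 and 0.0494. The IR libraries enter both comparisons, so the opposite signs of Elac2 are not separate observations.

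Markers of other cells were read in the same libraries. Of 7 neutrophil markers 6 were tested. For IR against sham all 6 were higher in edgeR, where 5.52% of all genes were, and for IR-Ori against IR 1 was lower, where 3.01% were. The 7 neutrophil markers summed to 7.50 to 61.0 FPKM in IR-Ori, 61.6 to 296 FPKM in IR and 3.83 to 26.04 FPKM in sham. The 8 hepatocyte markers, none at 0, summed to 33228 to 53146 FPKM in IR-Ori, 27633 to 39793 FPKM in IR and 17269 to 60184 FPKM in sham, with 0 called in the 3 comparisons. The 5 cholangiocyte markers summed to 11.6 to 36.6 FPKM in IR-Ori, 40.6 to 82.9 FPKM in IR and 17.9 to 57.7 FPKM in sham. Of the 5, 1 was called lower for IR-Ori against IR and 1 higher for IR against sham. The 5 erythroid markers summed to 66.2 to 105.8 FPKM in IR-Ori, 100.03 to 356 FPKM in IR and 23.6 to 264 FPKM in sham, with 0 called. Of 6 endothelial markers 2, and of 6 stellate cell markers 1, were called higher for IR against sham, with 0 in the other comparisons. The endothelial markers summed to 12.9 to 34.02 FPKM in IR-Ori, 21.3 to 45.8 FPKM in IR and 12.9 to 36.99 FPKM in sham, and the stellate cell markers to 13.8 to 32.2, 25.6 to 46.9 and 16.9 to 39.0 FPKM in the same order. None of 6 Kupffer cell markers, of 3 tested B and T cell markers or of 4 nuclear long RNAs was called in any comparison. Another list of 224 histone, small nucleolar and other genes was picked by symbol, as kinds whose RNA mostly carries no poly(A) tail. Of these 19 were tested, and 2 were lower for IR-Ori against IR, where 3.01% of all genes were. For IR against sham 2 were higher, where 5.52% of all genes were. The 224 summed to 235 to 366 FPKM in IR-Ori, 252 to 442 FPKM in IR and 223 to 291 FPKM in sham. Of 5 cardiac or skeletal muscle markers 0 were tested, and they summed to at most 0.09 FPKM in IR-Ori, 0.20 FPKM in IR and 0.35 FPKM in sham, with Myh6 listed at 0 in every library. The part of these cells and RNAs in the mitochondrial values was not tested.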

How the data were processed

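Total RNA of liver was sequenced in 3 groups of 6 libraries. The authors deposited raw counts per gene and FPKM in 1 table. The submitters' processing notes name HISAT2 2.2.1, cutadapt 1.9.1, DESeq2 and the build GRCm39, with no role for any of them. The counter, its strand and multiple-match settings, the annotation release and any selection of RNA are not stated in those sources. The deposited FPKM were recomputed from the deposited counts, the exonic gene sizes and the library totals for 100% of values within 0.0051, so the totals include mitochondrial counts.

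The 37 members are the genes placed on MT. The members and lists were chosen with earlier results of these data known. Counts were tested with edgeR 4.0.16 (quasi-likelihood F test, TMM scaling, R 4.3.3) over all 18 libraries with group as the only factor. Genes passed filterByExpr with a minimum count of 10 and a minimum total of 15, which left 14595 genes and 16 members; p-values were Benjamini-Hochberg adjusted over all genes tested, with a threshold of 0.05, and every adjusted p of a gene is from edgeR unless another tool is named. Shares were compared with two-sided exact permutation tests (SciPy 1.17.1; 924 splits of 6 against 6), adjusted over 18 tests. Alternatives were DESeq2 1.42.0, limma 3.58.1 on log2(FPKM + 1) and log2(FPKM + 0.1) for genes with FPKM of at least 1 in 6 libraries, other scalings, no filter, per-length shares, the replicate block, fits of 12 libraries and leaving out each library. The test was also run on simulated counts with the same spread setting for every gene. Differences between libraries in mitochondrial share were not simulated, so that run cannot check the tests of the members.

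Sequences are those of GENCODE M21 transcripts, matched by gene ID for 37 of 37 members. Named nuclear genes are, from each of 6 lists, the 3 with the smallest unadjusted p for IR-Ori against IR and the 3 for IR against sham, whether called or not; 1 of them is not reported here. All members with enough counts are given in full. Library totals were 12449529 to 19798188 counts, and no pair of libraries was identical.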

Additional observations from a re-analysis of the deposited data

Results flagged for a closer look

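In 17 of 105 groups of 6 values, 1 library lay far from the others by Dixon's test, where chance gives about 1 group in 20. The values of a library share its mitochondrial share, so the flags below are not separate observations.

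IR-Ori 5 lay apart from its group with a mitochondrial share of 14.1% and a tRNA share of 0.349% of the mitochondrial counts. It was also lowest, by a wide gap, for mt-Nd1 (15068 FPKM), mt-Co1 (29441 FPKM), mt-Nd5 (6071 FPKM), mt-Nd6 (4660.4 FPKM) and mt-Cytb (22249 FPKM).

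IR 1 lay above the rest of its group for mt-Co1 (98144 FPKM), mt-Atp8 (21.6 FPKM), mt-Co3 (1219 FPKM), mt-Nd3 (144 FPKM) and mt-Nd4l (101.5 FPKM). For 3 of these genes it also stood apart as a percent of the mitochondrial mRNA FPKM, with 0.363% for mt-Co3, 0.0427% for mt-Nd3 and 0.0302% for mt-Nd4l.

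IR 6 had the highest ratio of mt-Rnr2 to mt-Rnr1 counts of its group, 1.94. In sham 2, mt-Nd4 made up 10.01% of the mitochondrial mRNA FPKM, apart from the other sham libraries.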

How the results depend on the processing

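Leaving out each library in turn, the differences ranged as follows for IR-Ori against IR, IR against sham and IR-Ori against sham, in that order. The mitochondrial share ranged from 5.32 to 12.6, from -7.38 to 1.54 and from 2.91 to 9.40 points. The rRNA share ranged from -1.75 to -0.639, from 0.634 to 1.74 and from -0.138 to 0.162 points, and the tRNA share from -0.00227 to 0.0216, from -0.00432 to 0.00674 and from -0.00112 to 0.0228 points. The mt-Nd6 share ranged from 0.219 to 0.363, from -0.239 to -0.106 and from 0.0667 to 0.173 points, and the complex I share from 3.69 to 4.62, from -2.14 (without IR 2, exact p = 0.0303) to -1.21 and from 2.11 to 2.86 points. The log2 ratio of mt-Rnr2 to mt-Rnr1 ranged from -0.62 to -0.35, from 0.06 to 0.28 and from -0.41 to -0.18. The number of mitochondrial genes called ranged from 0 to 1, from 0 to 1 and from 0 to 0, the 1 being mt-Co3 without IR 1, whose log2 fold change for IR against sham ranged from -1.74 to 0.31. Per length, the rRNA share was 0.0132 points higher in IR-Ori than in sham, the mt-Nd6 share 0.654 points higher in IR-Ori than in IR (exact p = 0.0519) and the complex I share -1.87 points for IR against sham (exact p = 0.0455). Of the 5 abundant genes that share few windows, mt-Cytb alone is outside complex I. With only these 5, the mt-Nd6 difference was 0.342 (exact p = 0.177) for IR-Ori against IR and the complex I difference 0.873 (exact p = 0.472) for IR-Ori against sham. The replicate numbers pair nothing by the labels. Deviations of same-numbered libraries from their group means correlated at 0.0124 to 0.418 for IR-Ori against IR. The range was -0.442 to 0.335 for IR against sham and -0.360 to 0.302 for IR-Ori against sham. On the shares over all 13 mRNA genes, a replicate block gave 0.303 for mt-Nd6 in IR-Ori against IR (exact sign-flip p = 0.0938). It gave 2.48 for complex I in IR-Ori against sham (exact sign-flip p = 0.0625), and the smallest p of this test is 0.03125. The causes of these changes were not tested. Of 960 recomputed fold changes of members, 77 had the other sign, and with the exception of mt-Co3 without IR 1 none of these was called. For all genes, 526 calls for IR-Ori against IR became 1335 with DESeq2, 125 with limma, 163 with the replicate block and 172 with 12 libraries, and ranged from 152 to 1057 without 1 library. For IR against sham 1151 became 1818 with DESeq2, 578 with limma and 644 with the replicate block and ranged from 581 to 1560 without 1 library. For IR-Ori against sham DESeq2 called 38. The share of calls that were higher was 16.5% for IR-Ori against IR in edgeR and 33.6% with DESeq2.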
